A study of Homo sapiens with 3 samples.

Results

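The wider 8p12-p11 segment is the stretch of 8.5 Mb around FGFR1 that begins at position 35000000 of chromosome 8 on hg38 and ends near the centromere, beyond POTEA. Its members were taken as the rows of the deposited count table whose first listed position falls inside this stretch, without names that begin with ADAM, MIR, SFRP or RNU. The rule gave 61 of the 26485 rows of the table: 51 protein-coding genes and 10 others, which were long noncoding RNAs, pseudogenes and 2 rows without a match in the RefSeq gene table. The 11 rows left out by name lay in the part of the segment beyond TACC1 and were not analysed here.

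The samples were 3 libraries of 1 group, CAMA1_Cntrl replicates 1, 2 and 3. CAMA1 is an established human breast cancer cell line, estrogen receptor positive and described as FGFR1-amplified, here at a passage below 10 and kept for 48 h in medium without estradiol. No treated group and no second cell line was included, so what follows compares genes with one another and libraries with one another. CAMA1 is 1 line, and its DNA copy number was not analysed here. Poly-A RNA was sequenced with a strand-specific kit, and the libraries held 26473939, 26592335 and 30745412 counts. The labels call the replicates biological but do not say whether the cultures were separate in time, so p-values measure only the spread between these libraries, which may be partly technical.

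When a stretch of a chromosome is amplified, extra copies of all its genes are carried along, but only some of the genes are active enough in the tissue for the extra copies to be seen in RNA. The short arm of chromosome 8 around FGFR1 is a recurrent amplicon of luminal breast cancer, and ZNF703, WHSC1L1 (now NSD3), LSM1, ERLIN2, PPAPDC1B (now PLPP5), ASH2L and FGFR1 itself have been proposed as its drivers. Nearer the centromere, KAT6A and IKBKB lie in a separate group of genes that is amplified in part of these tumours. Levels are given as TPM, counts divided by gene length and scaled to the same total in every library, and a gene was called detected when it had at least 10 counts in each library.

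The cells matched their label at the level of marker genes. All 7 luminal markers (ESR1, GATA3, FOXA1, KRT8, KRT18, EPCAM and CDH1) were detected, with summed levels of 4985 to 5554 TPM. Of 4 fibroblast markers only COL1A1 was detected, with summed levels of 10.2 to 10.8 TPM. Of 3 basal markers 2 were detected, with KRT14 the highest at 1.48 ± 0.335 TPM and summed levels of 2.04 to 2.81 TPM. No endothelial marker was detected, with summed levels of 0.0578 to 0.253 TPM. Of the immune genes CD68 was detected, at 3.08 ± 0.470 TPM. PTPRC and CD3E had, like CDH5, THY1 and COL1A2, at most 3 counts in each library.

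The segment was a well expressed piece of the genome. The median level of its 51 protein-coding genes was 45.5, 49.4 and 44.7 TPM in replicates 1, 2 and 3, against 8.32, 8.21 and 7.73 TPM for the 18953 other protein-coding genes. The 3 libraries lay close together in both sets, and the medians of the sets did not overlap. On the log2(TPM + 1) scale the members stood 2.39 ± 0.07 above the other genes (SD, n = 3). Their median was higher in all 3 libraries, and the exact permutation p, from two-sided sign flips over libraries, was 0.25, the smallest that 3 libraries can give. Among detected genes only the difference was 1.49, and with the noncoding members included it was 1.34.

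Of the 51 protein-coding members 38 were detected (background: 67.4% of all protein-coding genes), a share not far from that of the genome. At higher levels the members' counts lay farther above the background. A mean of 10 TPM was reached by 33 members (background 47.9%) and 100 TPM by 13 members (background 10.2%). The 61 members took 0.504%, 0.494% and 0.474% of all counts in replicates 1, 2 and 3 and made up 0.230% of the rows. Of all TPM, which allows for gene length, they took 0.364 ± 0.00972%. The protein-coding members made up 0.268% of protein-coding genes. Of the members' own counts 34.8 ± 0.492% came from the 5 most counted members of each library.

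The segment also stood apart from its own chromosome arm. Protein-coding genes of chromosome 8 that start before the segment, towards the telomere of the short arm, had a median of 0.725 ± 0.129 TPM, with 103 of 201 detected. The members stood 4.79 ± 0.03 above them on the log2(TPM + 1) scale, and 2.75 ± 0.11 above them when only detected genes were counted (SD, n = 3 libraries; higher in 3 of 3, exact sign-flip permutation p = 0.25 each). Genes that start beyond it, mostly on the long arm, had a median of 18.2 ± 0.477 TPM, and the members exceeded them by 1.31 ± 0.04, or by 0.74 ± 0.07 among detected genes.

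Cut into pieces of 5 Mb, the telomeric side never reached the median of the segment's detected genes, 74.0 ± 2.14 TPM. The median TPM of detected genes ran between 4.24 and 25.5 in the 7 telomeric pieces with at least 5 such genes. The middle stretch of the segment, described below and shorter than 5 Mb, lay within this range at 14.1 TPM. In the 18 pieces on the other side it ran between 11.5 and 103, and 2 of them exceeded 70 TPM. Levels as high as those around FGFR1 therefore occurred elsewhere on the chromosome, beyond the centromere.

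**Figure D1:**
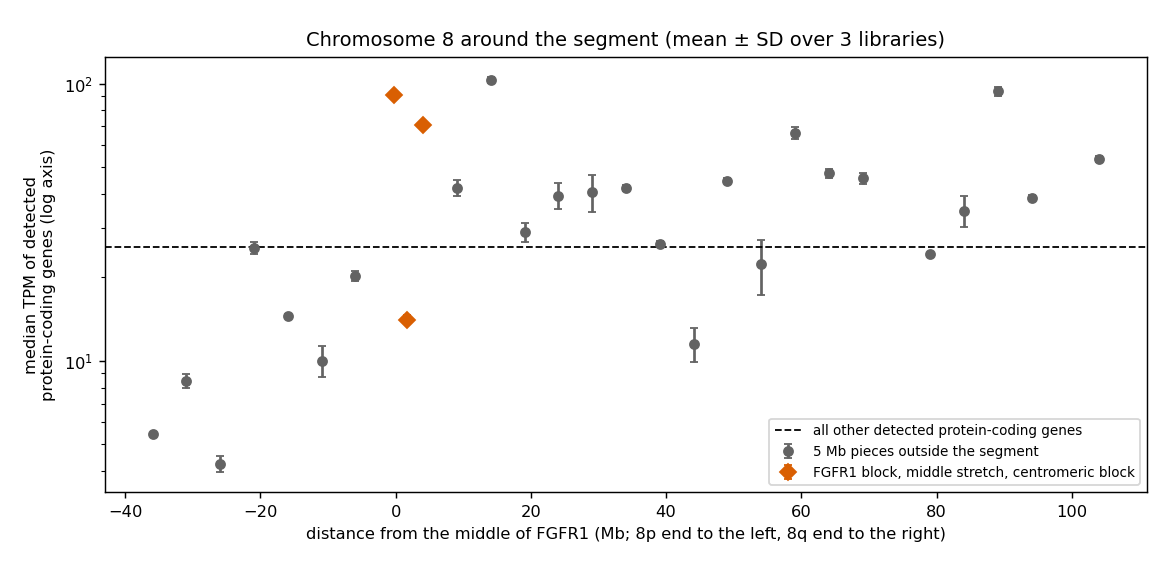
Median TPM of detected protein-coding genes (log axis) against distance from the middle of FGFR1 in Mb, as mean ± SD over 3 libraries, for 5 Mb pieces outside the segment (grey circles) and for 3 sections of the segment (orange diamonds, from left to right the FGFR1 block, the middle stretch and the centromeric block). The FGFR1 block at 90.9 TPM and the centromeric block at 70.6 TPM lie above all 7 pieces to their left, while the middle stretch lies at 14.1 TPM and the dashed line marks 25.8 TPM for all other detected genes.

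Read in position order, the segment was not evenly expressed: it held a flank with no detected protein-coding gene, a dense block of high genes around FGFR1, a sparse and lower stretch, and another high block before the centromere. The telomeric flank, of 2.6 Mb, held 2 protein-coding genes, neither of them detected. The FGFR1 block, of 1.3 Mb, held 19 protein-coding genes from ZNF703 to TACC1, of which 17 were detected, or 13.1 detected genes per Mb. The middle stretch, of 2.5 Mb, held 7 protein-coding members from PLEKHA2 to ZMAT4, of which 5 were detected (2.0 per Mb), not counting 8 rows left out by name. The centromeric block, of 2.1 Mb, held 23 protein-coding genes from GOLGA7 to POTEA with 16 detected (7.62 per Mb), and 3 rows were left out by name there.

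From section to section the median changed in the same direction in all libraries. A step here is a difference of section medians, not a change at the boundary itself. The sections were drawn from gene positions, but with results of these data on the FGFR1 block known. The steps are therefore a description and no independent evidence. The median over protein-coding genes was 87.5, 86.3 and 87.2 TPM in the FGFR1 block in replicates 1, 2 and 3, against 0.148, 0.161 and 0.0569 TPM in the telomeric flank, a step of 6.30 ± 0.07 on the log2(TPM + 1) scale (SD, n = 3). In the middle stretch the median was 9.54, 8.05 and 4.76 TPM, a step of -3.42 ± 0.45 relative to the FGFR1 block. In the centromeric block it was 26.4, 26.7 and 27.4 TPM, a step of 1.76 ± 0.48 relative to the middle stretch. The section medians kept this order in every library, although single genes of the sections overlapped, and each of the 3 steps had an exact permutation p of 0.25, also after Benjamini-Hochberg adjustment, so none could pass 0.05. The first step rests on 2 flanking genes. In every library the median of the middle stretch was the level of C8orf4, 1 of its 7 protein-coding members. The steps into and out of that stretch therefore carry the spread of this gene between libraries.

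Among detected genes alone, the FGFR1 block had a median of 90.9 ± 1.01 TPM, the middle stretch 14.1 ± 0.562 TPM and the centromeric block 70.6 ± 1.29 TPM. This count leaves out 7 of the 23 genes of the centromeric block, which were not detected. The size of the steps depended on where the lines were drawn and on length. With the boundaries moved 0.2 Mb towards the centromere the step into the FGFR1 block was 3.39 and that into the centromeric block 0.95. Without division by gene length the step into the centromeric block was 3.21.

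**Figure D2:**
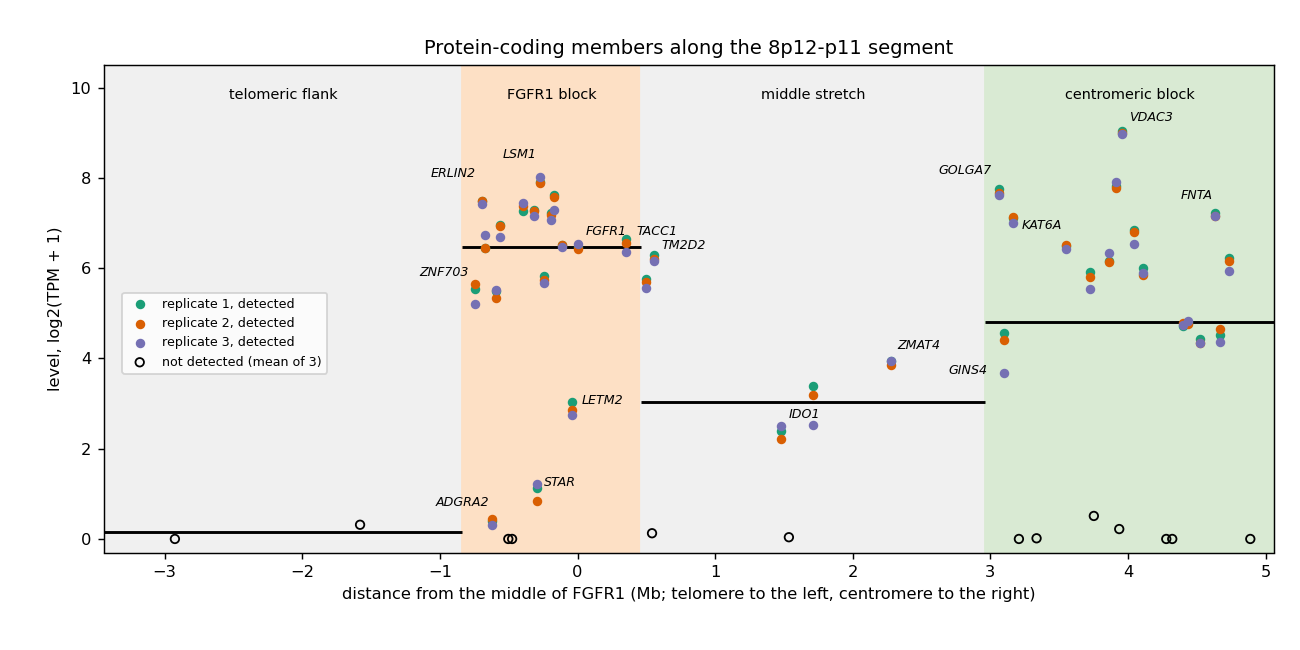
Level of the 51 protein-coding members, log2(TPM + 1), against distance from the middle of FGFR1 in Mb; coloured points are the 3 libraries of detected genes, open circles the mean of genes not detected, and black bars the median of each section. The bar lies at 6.46 in the FGFR1 block, 3.03 in the middle stretch and 4.80 in the centromeric block, and open circles sit among high genes in both blocks.

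The telomeric flank gave few counts. UNC5D (35235457 to 35794663), a netrin receptor gene of the nervous system, had no count in any library, which allows up to 3 counts, or 0.0415 TPM. KCNU1, a potassium channel gene known from sperm, had 11, 12 and 5 counts. The noncoding LINC01605 had 6, 6 and 7 counts. ZNF703 (37695751 to 37700021), a transcriptional co-repressor gene of luminal cells, was thus the first detected protein-coding gene on the way from the telomere, at 45.5, 49.4 and 35.7 TPM.

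Genes of RNA decay, translation and protein turnover included the highest gene of the FGFR1 block. LSM1 (38163321 to 38176730, minus strand), part of the ring that starts decapping and decay of mRNA, reached 240.1, 235 and 259 TPM. ERLIN2 (37736579 to 37757801), which works in the degradation of proteins of the endoplasmic reticulum, stood at 179, 178 and 169.8 TPM. EIF4EBP1 (38030502 to 38060365), a repressor of cap-dependent translation, stood at 153, 164 and 173 TPM. These 3 genes were above FGFR1 in every library. PROSC (now PLPBP), which binds vitamin B6 phosphate, was the lowest of the list in this block, at 86.0, 86.3 and 106 TPM, on both sides of FGFR1. Over the whole segment, 6 of 7 members of this role list were detected (background: 67.4% of all protein-coding genes). HTRA4, a secreted protease gene known from placenta, was the one that was not. The median of the list was 144 TPM, the level of FNTA. FNTA and PROSC are on the list although the functions given for them here are others. The role lists are short and were drawn up with earlier results of these data known.

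Lipid enzyme genes formed a neighbouring high pair. PPAPDC1B (38263132 to 38269220), a lipid phosphate phosphatase gene, reached 196, 191 and 154 TPM and lay lowest in replicate 3. DDHD2 (38231491 to 38262769), a phospholipase and triglyceride lipase gene, reached 149, 144 and 133 TPM, with its end 362 bases from that of PPAPDC1B on the opposite strand. Between them the step was 0.34 ± 0.10 on the log2 scale, small beside other steps of the segment. STAR, which moves cholesterol into mitochondria at the start of steroid hormone synthesis, had 31.75, 21 and 41.5 counts, or 1.09 ± 0.278 TPM.

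Chromatin and transcription genes of the FGFR1 block lay on both sides of FGFR1. ASH2L (38105493 to 38140080), a core subunit of histone H3 methyltransferase complexes of the MLL type, stood at 155, 154 and 140.5 TPM. WHSC1L1 (38275043 to 38382272), a histone H3 methyltransferase gene, stood at 90.4, 90.3 and 87.2 TPM. BRF2 (37843880 to 37849913), an initiation factor for RNA polymerase III, stood at 43.8, 39.3 and 44.7 TPM, close to ZNF703. Over the whole segment 7 of 8 genes of this list were detected (background 67.4%), with a median of 43.1 TPM. NKX6-3, a homeobox gene, had no count.

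Signalling and trafficking genes ranged from FGFR1 and above it to LETM2 far below it. FGFR1 (38411138 to 38468834, minus strand), the receptor gene the line is described by, stood at 87.5, 84.4 and 92.1 TPM. BAG4, a chaperone partner gene that also restrains death receptors, stood at 55.5, 52.2 and 49.9 TPM. RAB11FIP1, an effector of endosome recycling, stood at 124, 121 and 102 TPM and TACC1, a microtubule and centrosome gene, at 99.4, 93.2 and 80.7 TPM. LETM2, a relative of a gene for a mitochondrial ion exchanger, stood at 7.13, 6.30 and 5.71 TPM, although it lies between WHSC1L1 and FGFR1 and ends 1613 bases from FGFR1.

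ADGRA2, a receptor gene of brain blood vessels, was detected with 19, 22 and 17 counts, or 0.308 ± 0.0633 TPM. GOT1L1, known from testis, and ADRB3, the adrenergic receptor gene of fat tissue, lie next to each other and had no count in any library, with limits of 0.220 and 0.114 TPM. Of the block's 5 noncoding members, the pseudogene RNF5P1 stood at 26.1 ± 2.03 TPM and LOC728024 at 5.41 ± 1.08 TPM. RNF5P1 copies a gene elsewhere in the genome, so its reads may come from that gene. C8orf86 (now LINC03042) stood at 0.995 ± 0.174 TPM and LOC102723701, which shares exon bases with ERLIN2 on the other strand, at 0.659 ± 0.111 TPM. LOC101929622 had no count, and in the centromeric block LOC102723729 had 0, 5 and 3 counts.

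In the middle stretch the high level of the FGFR1 block ran on for a short way and then ended. PLEKHA2 (38901235 to 38973911), whose product binds phosphoinositides, stood at 53.0, 50.8 and 46.5 TPM, and TM2D2 (38988808 to 38996522) at 77.4, 72.6 and 70.2 TPM. HTRA4 lies between them, 237 bases from PLEKHA2 and 145 bases from TM2D2, and had 3, 1.5 and 1.5 counts. The next detected member, IDO1, a tryptophan-degrading enzyme gene of immune regulation, starts 917286 bases further on and stood at 4.26, 3.66 and 4.63 TPM. Its neighbour IDO2 had at most 1 count. C8orf4 (now TCIM), a small regulator linked to WNT signalling, stood at 9.54, 8.05 and 4.76 TPM, and ZMAT4, a zinc finger gene, at 14.5, 13.4 and 14.3 TPM.

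The centromeric block opened with GOLGA7 and held the highest gene of the segment. VDAC3 (42391761 to 42405937), a channel of the outer mitochondrial membrane, reached 521, 508 and 504 TPM, and ranked 228 among 19004 protein-coding genes. GOLGA7 (41490562 to 41510980), partner of the enzyme that attaches palmitate to RAS proteins, reached 214, 203 and 197 TPM. SLC20A2, a phosphate transporter gene, stood at 115, 111 and 92.3 TPM, AP3M2, an adaptor of vesicle transport, at 58.9, 55.3 and 45.5 TPM, and HOOK3, which links cargo to dynein, at 20.7, 19.1 and 19.4 TPM. Of the 11 trafficking, cytoskeleton and mitochondrial members 10 were detected (background 67.4%), with a median of 73.4 TPM. ANK1, the ankyrin of red blood cells, had 2, 0 and 1 counts.

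Genes of DNA repair and replication, lipid synthesis, chromatin and kinase signalling lay within the same block. POLB (42338455 to 42371813), the polymerase of base excision repair, reached 223, 219 and 238 TPM. GINS4, a subunit of the replication helicase, stood at 22.5, 20.3 and 11.7 TPM. GPAT4 (41578188 to 41625001), which starts glycerolipid synthesis, reached 137, 140.2 and 126 TPM. KAT6A (41929479 to 42052026), a histone acetyltransferase gene, stood at 88.4, 89.6 and 85.0 TPM and IKBKB (42271302 to 42332653), the kinase that releases NF-kB, at 70.7, 69.0 and 79.9 TPM.

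Towards the centromere the levels fell off, with exceptions. From THAP1 on, 4 of 6 detected genes lay between 19.7 and 26.6 TPM on average: THAP1, a DNA-binding factor gene, RNF170, a ubiquitin ligase gene whose product works with the erlins, HOOK3, and POMK, a kinase of the dystroglycan sugar chain. FNTA (43056299 to 43085788), the shared subunit of the protein farnesyl and geranylgeranyl transferases, reached 148, 142 and 142 TPM between HOOK3 and POMK. HGSNAT, a lysosomal enzyme gene for heparan sulfate breakdown, stood at 73.4, 70.5 and 60.0 TPM, and SMIM19, a small membrane protein gene, at 63.0, 56.2 and 58.7 TPM just before THAP1.

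Genes below the detection limit sat inside the centromeric block as well. CHRNB3 and CHRNA6, subunit genes of neuronal nicotinic receptors, are neighbours and had no count, with limits of 0.155 and 0.127 TPM. NKX6-3 and POTEA had no count either. PLAT, the tissue plasminogen activator gene, had 17, 7 and 19 counts, and DKK4, a WNT inhibitor gene, had 3, 1 and 0 counts although it lies between POLB and VDAC3. Over the segment, 13 protein-coding members were not detected; 11 had at most 3 counts in each library (background: 23.8% of protein-coding genes) and 7 had none at all. Of the 13 genes listed as restricted to other tissues, 2 were detected, STAR and ZMAT4 (background: 67.4% of all protein-coding genes). This list, too, was drawn up with earlier results of these data known.

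**Figure D3:**
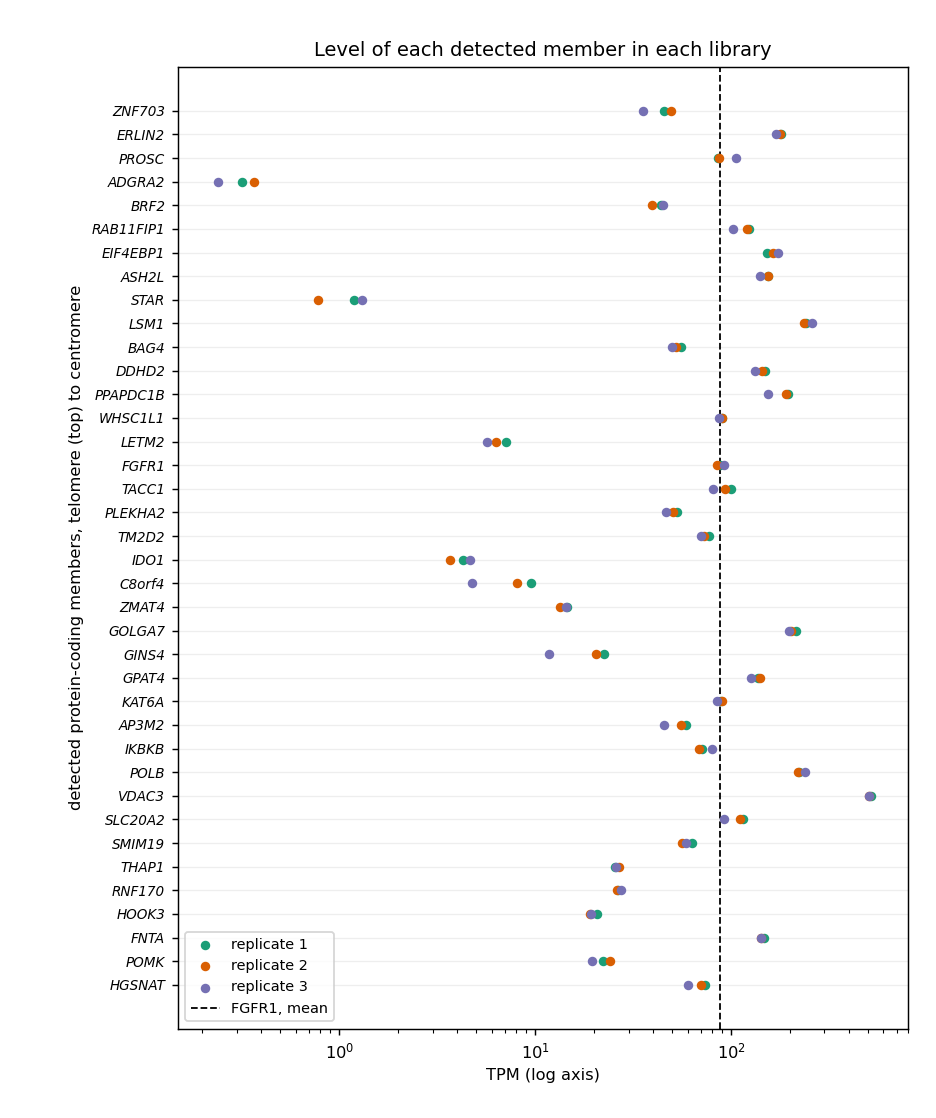
TPM (log axis) of the 38 detected protein-coding members, from the telomere at the top to the centromere at the bottom; each point is 1 library and the dashed line is the mean of FGFR1 at 88.0 TPM. VDAC3 at 511 TPM lies farthest right and ADGRA2 at 0.308 TPM farthest left, and the points of 1 gene mostly lie closer together than those of neighbouring genes.

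FGFR1 stood in the middle of the detected genes of its own segment. It ranked 17 of 51 protein-coding members and 2246 of 19004 protein-coding genes. Of the 37 other detected members 13 were above FGFR1 in every library (background: 16.0% of all detected protein-coding genes), 20 were below it in every library (background: 81.2%) and 4 lay on both sides. VDAC3 exceeded it 5.81-fold (log2 ratio 2.54 ± 0.08), LSM1 2.78-fold (1.47 ± 0.02), POLB 2.58-fold (1.37 ± 0.01) and GOLGA7 2.33-fold (1.22 ± 0.11; SD, n = 3 libraries). ZNF703 stood below FGFR1 at a log2 ratio of -1.03 ± 0.31, BRF2 at -1.05 ± 0.05 and BAG4 at -0.75 ± 0.12. The exact permutation p was 0.25 at best, and 0.28 after adjustment over the 37 genes, so no ratio could pass 0.05.

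The genes nearest to FGFR1 in level could not be ordered. PROSC, TACC1, WHSC1L1, FGFR1 and KAT6A stood at 92.7 ± 11.3, 91.1 ± 9.52, 89.3 ± 1.83, 88.0 ± 3.86 and 87.7 ± 2.38 TPM (SD, n = 3), and no neighbour in this order kept its place in every library. Along the whole order of 38 detected genes, 19 of 37 successive pairs kept the same order in all 3 libraries and 9 were apart by more than their summed SDs. VDAC3 over LSM1, POLB over GOLGA7, KAT6A over TM2D2 and BRF2 over RNF170 were among the 9. The ranking depends on gene length: without division by length, 8 members exceeded FGFR1 in every library, and LSM1, POLB, EIF4EBP1, FNTA, PROSC, ASH2L, GOLGA7, PPAPDC1B and SLC20A2 lay below it on average.

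Genes often proposed as drivers of the amplicon were all expressed. All 17 members of that list were detected (background 67.4%) and 16 reached 10 TPM (background 47.9%), with a median of 91.1 TPM. LETM2 was the one below 10 TPM. Of the 34 other protein-coding members 21 were detected and 17 reached 10 TPM, with a median of 10.8 TPM, or 50.1 TPM among the detected. The list was drawn up with results on these samples known, and some such genes were proposed because of their expression in tumours, so it is no independent evidence.

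Steps between direct neighbours were as a rule large against the spread of the libraries. Among the 37 pairs of consecutive detected protein-coding members, 34 kept the same direction in all 3 libraries (background: 96.3% of 12778 such pairs on all chromosomes), and the SD of a step had a median of 0.16 on the log2 scale. Of the pairs, 15 differed by at least 2 on that scale, that is at least 4-fold (background 51.2%), 7 of them upwards and 8 downwards towards the centromere (background 25.7% and 25.4%). The median size of a step was 1.44 within the segment and 2.07 over all chromosomes. Neighbours in the segment were therefore not farther apart than neighbours elsewhere, and the count at this size was below the background share. With 3 libraries no single step could pass 0.05 (exact sign-flip permutation p = 0.25, adjusted 0.27).

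Of the 6 largest steps 4 came in pairs around the low genes ADGRA2 and STAR, and the others lay within the middle stretch and at its centromeric edge. ADGRA2 over PROSC stood at -8.20 ± 0.46, and BRF2 over ADGRA2 at 7.09 ± 0.39, although BRF2 and ADGRA2 share 107 bases at their ends. The few counts of ADGRA2 may depend on whether the counting used strand, which was not given. STAR over ASH2L stood at -7.12 ± 0.45, and LSM1 over STAR at 7.82 ± 0.34. IDO1 over TM2D2 stood at -4.14 ± 0.20, and GOLGA7 over ZMAT4 at 3.86 ± 0.07 (log2 ratios, SD, n = 3). The size of steps to low genes depends on the pseudocount: with 1 in place of 0.01, LSM1 over STAR was the largest at 6.88 and ADGRA2 over PROSC stood at -6.16. The step from ZMAT4 to GOLGA7 spans 592737 bases, and rows left out by name lie in both gaps. LETM2 gave the next pair, with LETM2 over WHSC1L1 at -3.81 ± 0.14 and FGFR1 over LETM2 at 3.79 ± 0.20.

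**Figure D4:**
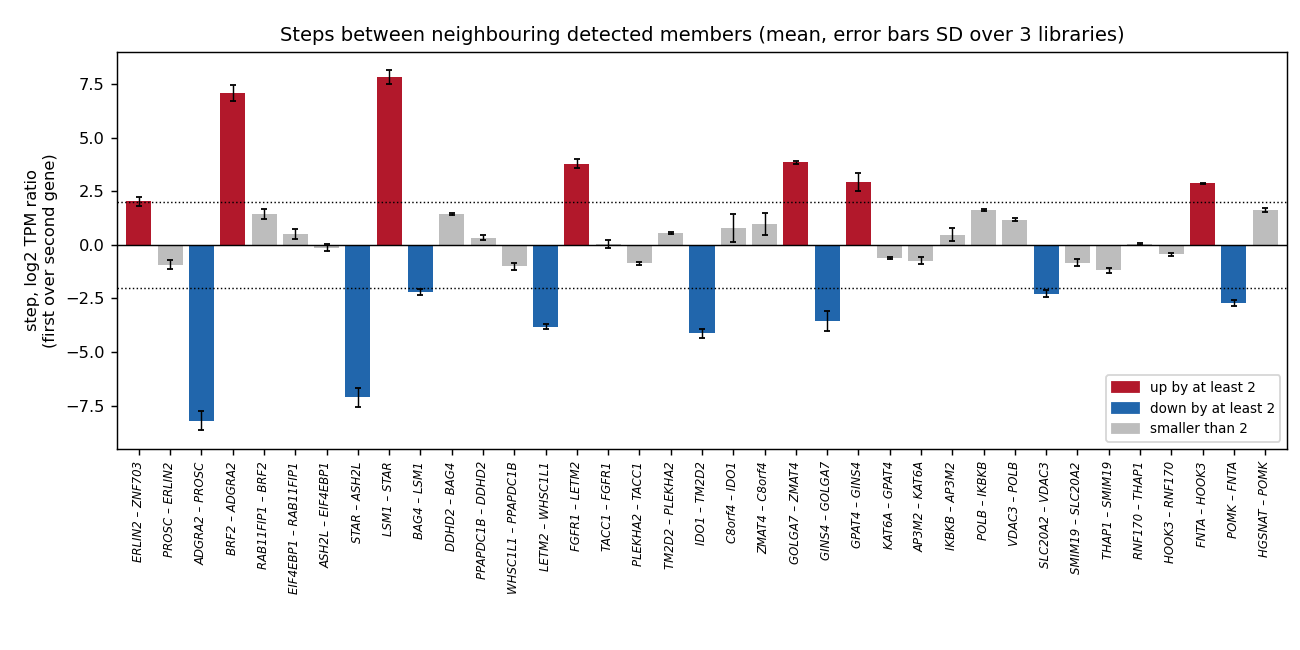
Step in log2 TPM for each of the 37 pairs of consecutive detected protein-coding members, named as the gene nearer the centromere over the gene before it; bars are means, error bars SD over 3 libraries and dotted lines mark 2 and -2. Red and blue bars are the 15 steps past these lines, with ADGRA2 over PROSC at -8.20 and LSM1 over STAR at 7.82 the largest on this scale, with a pseudocount of 0.01.

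Runs of 5 consecutive detected genes show the plateaus without the single low genes. The highest median was 149 ± 7.55 TPM, in the runs from RAB11FIP1 to LSM1 and from EIF4EBP1 to BAG4, and the runs from ASH2L to DDHD2, STAR to PPAPDC1B and LSM1 to WHSC1L1 followed at 142 ± 8.48 TPM. Runs that include FGFR1 itself had medians of 73.4 to 90.9 TPM, so in TPM the summit lay on its telomeric side. Of the genes in the highest runs, EIF4EBP1, ASH2L and LSM1 fell below FGFR1 on average without division by length. RAB11FIP1 stayed above it, and STAR and BAG4 were below it either way. Runs without division by length were not computed, so the place of the summit holds for TPM only. The lowest run, from IDO1 to GINS4, had 13.2 ± 1.39 TPM. In the centromeric block another summit, of 106 ± 12 TPM, covered AP3M2 to THAP1, and the last 4 runs were at 25.8 to 26.8 TPM. Neighbouring runs share 4 genes.

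Pairs of genes that start close together in opposite directions did not always stand at like levels. Only 2 such pairs had starts within 1000 bases. RNF170 and HOOK3, with starts 167 bases apart, stood at 26.6 ± 0.682 and 19.7 ± 0.841 TPM. BAG4 and LSM1 overlap by 143 bases at their starts, and BAG4 over LSM1 stood at -2.22 ± 0.14 on the log2 scale. SMIM19 and SLC20A2 overlap by 1059 bases at their starts. In both LSM1 with BAG4 and SMIM19 with SLC20A2, exons overlap on opposite strands. Whether the counting used strand was not given in the sources used here, so these 4 levels are uncertain. The same limit holds for 3 other pairs with exons on opposite strands. These are ADGRA2 with BRF2 (107 shared bases), ERLIN2 with LOC102723701 (320) and GINS4 with LOC102723729 (114). It weighs most on members with few counts, such as ADGRA2. Of the 61 members, 10 had a fractional count in at least 1 library, among them RAB11FIP1, RNF170, HOOK3 and IDO1 in all 3.

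The libraries differed over the segment by amounts near those over all genes tested, and replicate 3 stood apart from replicates 1 and 2. Of 42 members tested, 20 varied between libraries beyond Poisson sampling (edgeR, chi-square test of the deviance, Benjamini-Hochberg adjusted p under 0.05), against 41.6% of 14453 genes tested. The members had a median of 91.0 CPM, counts scaled to library size with TMM, against 28.2 CPM over all genes tested, and small differences pass this test more readily at higher counts. None of the 42 spanned a range of 1 or more on the log2 CPM scale (background 1.64%), and their median range was 0.22, against 0.19 over all genes. Of the 20 called, 13 were lowest in replicate 3 (background: 44.9% of all genes called). Without replicate 3, TACC1 was the 1 of 43 members that passed (background 8.08%), with an adjusted p of 0.0208 in edgeR; replicates 1 and 2 still differed for 1180 genes and were kept as separate samples.

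GINS4 and C8orf4 varied most. GINS4 had 32.0, 29.4 and 17.4 CPM in replicates 1, 2 and 3, a range of 0.88 on the log2 scale (edgeR adjusted p = 3.20e-30), and was the only member that also passed against the trended negative binomial spread (adjusted p = 0.00193; background 1.31%). C8orf4 had 6.51, 5.57 and 3.39 CPM (adjusted p = 1.72e-06, and 0.404 against the trended spread). The other GINS subunit genes, chosen after GINS4 was seen, were also lowest in replicate 3: GINS1 had 29.7, 28.4 and 19.9 CPM, GINS2 14.1, 11.6 and 9.11 CPM and GINS3 8.27, 8.05 and 6.58 CPM. In edgeR the adjusted p was 6.43e-14 for GINS1, 1.69e-06 for GINS2 and 0.0804 for GINS3, and none of the 3 passed against the trended spread (0.229, 0.839 and 1). Of all genes called, 44.9% were lowest in this library. In bulk RNA, fewer cells that express a gene and less RNA per cell cannot be told apart.

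Next in range among the members called were ZNF703, at 56.4, 62.2 and 46.1 CPM, PROSC, at 81.8, 83.3 and 105 CPM, AP3M2, at 80.1, 76.2 and 64.5 CPM, and PPAPDC1B, at 190.4, 188 and 156 CPM. The other 7 members called were highest in replicate 3: PROSC, BRF2, EIF4EBP1, LSM1, IKBKB, POLB and FGFR1 (background: 46.5% of all genes called). FGFR1 had 204, 199.9 and 224 CPM (edgeR adjusted p = 1.26e-09). Members of both blocks thus lay on either side in this library. KAT6A, VDAC3, WHSC1L1 and ERLIN2 varied least or nearly so, and none of these 4 passed the test.

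**Figure D5:**
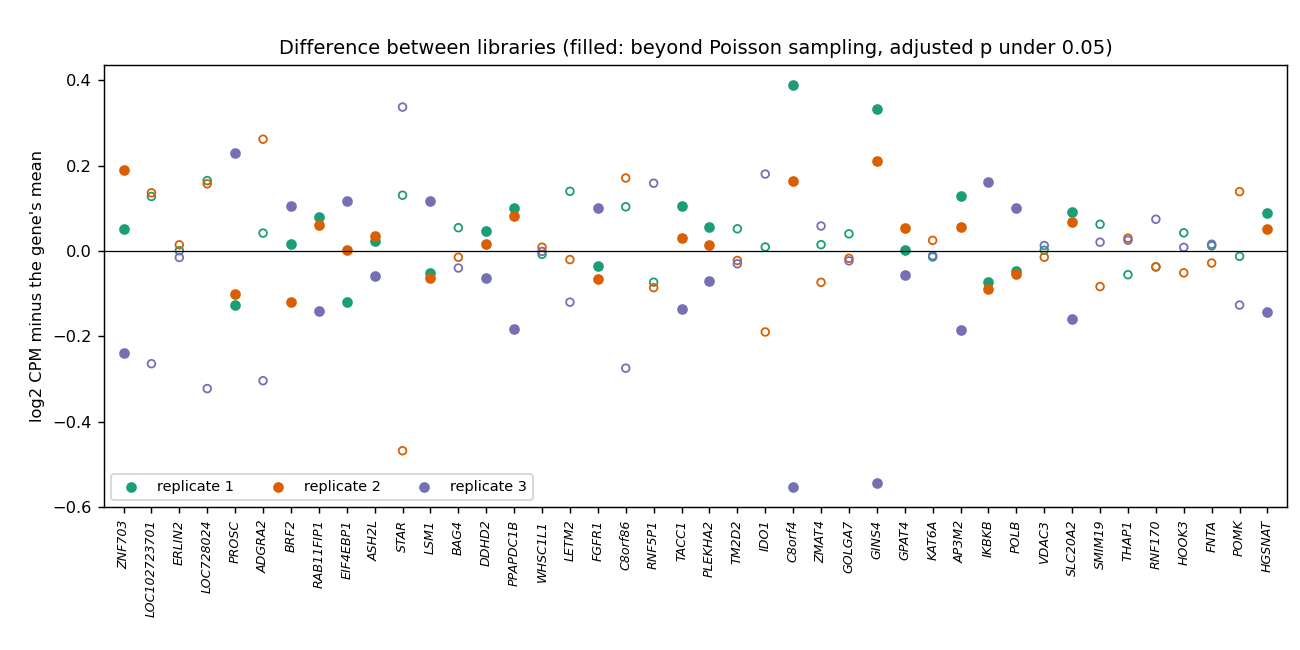
Log2 CPM of each tested member minus its mean over the 3 libraries, in position order from the telomere (left) to the centromere (right); filled points are the 20 genes that varied beyond Poisson sampling and open points the other 22. Replicate 3 (purple) is the lowest in 13 of the 20, with C8orf4 and GINS4 farthest from 0.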

How the data were processed

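The submitters' processing notes name hg38, featureCounts, Subread and TopHat. Neither versions nor counting settings are given in the sources used here. The deposited values were read as estimated counts (some are fractional), and the authors gave a gene length beside them. TPM was computed from these for all 26485 rows; gene types came from RefSeq through 54 own and 5 older symbols of the 61 members. For tests of spread, counts were rounded and fitted in edgeR 4.0.16 (R 4.3.3) after its low-count filter, with an intercept and TMM factors of 1.01, 1.00 and 0.990, and the fit was tested on simulated data. Differences of medians used log2(TPM + 1); ratios used log2(TPM + 0.01). Errors are SD over libraries. A count of 0 allows up to 3 counts, which covers counting error only. Members, sections and lists were chosen with earlier results of these data known. Named were all detected protein-coding members, the 5 highest others, the 6 largest steps and the 6 widest ranges among calls. Coordinates are 1-based, hg38. Sequences of this chromosome and the summed level of immune markers are not reported here. Alternatives were another scaling (DESeq2 1.42.0), CPM, GENCODE 29 lengths, pseudocounts, count minimums, boundaries and leaving out each library.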

Additional observations from a re-analysis of the deposited data

How the results depend on the processing

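The level of the segment, the 3 steps between sections and the 6 largest steps between neighbours kept their direction under every alternative that could be computed. The step into the FGFR1 block could not be computed on detected genes, since the telomeric flank has none, nor could the steps around ADGRA2 at a minimum of 20 counts. The order of the largest steps changed: without division by length STAR over ASH2L, at -7.41, exceeded ADGRA2 over PROSC, at -7.00. The number of steps of at least 2 was 10 with GENCODE 29 exon lengths and 20 at a minimum of 1 count, against 15. Without division by length, 8 members instead of 13 were above FGFR1 in every library, and the log2 ratio over FGFR1 became -1.23 for PROSC, -1.98 for EIF4EBP1, -0.17 for ASH2L, -0.97 for LSM1, -0.24 for PPAPDC1B, -0.38 for GOLGA7, -0.87 for POLB, -0.24 for SLC20A2, -1.18 for FNTA and 0.65 for KAT6A. With GENCODE lengths it became 0.11 for ZNF703, 0.28 for BAG4, 0.16 for PLEKHA2, 0.58 for TM2D2 and -0.65 for FNTA. These changes follow from the lengths used. When 1 library was left out, the ratio ran between -0.015 and 0.072 for WHSC1L1, -0.024 and 0.16 for TACC1 and -0.050 and 0.051 for KAT6A. Variation beyond sampling was found for 1 member and 190 genes with the trended negative binomial dispersion, against 20 and 6017, and for 1 to 19 members and 1180 to 5453 genes when 1 library was left out, the lowest without replicate 3. No paired analysis was possible because there is 1 group. Depth limits what can be said of the 11 members with at most 3 counts in each library.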
